A study of Mus musculus with 2084 samples.

Results

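The immediate early genes described here are 37 mouse genes taken by symbol and not by a measured value, though earlier results of these data were known. All 37 were found among the 35606 gene IDs of the main RNA count table. They comprise 8 factors of the Fos, Jun and related leucine zipper families, 7 Egr and Klf zinc finger factors, 3 Nr4a nuclear receptors, the factors Myc, Npas4 and Csrnp1, 11 feedback and growth arrest genes, 3 effectors of synapse and cell shape (Arc, Gem and Rhob) and the inducible heat shock genes Hspa1a and Hspa1b. For measures per cell, 12 of them served as core genes: Fos, Fosb, Jun, Junb, Egr1, Egr2, Ier2, Atf3, Nr4a1, Btg2, Zfp36 and Dusp1.

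Immediate early genes are transcribed within minutes of a stimulus by factors that the resting cell already holds, without new protein being made first. Serum response factor with its Elk cofactors acts through the CArG box and CREB through the cyclic AMP response element (CRE), after mitogen, calcium or stress signals. Most of the products are transcription factors that drive a later wave of genes, and others, such as the phosphatase Dusp1 and the RNA binding protein Zfp36, end the response. In brain they are known as marks of neuronal activity and of growth factor or injury signals in glia, and they are also known to be switched on while tissue is dissociated into single cells.

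The study profiled single cells of the neural stem cell (NSC) lineage and of astrocytes in mouse brain by Smart-seq3, the RNA part of a protocol that also read DNA methylation and chromatin access, and each letter from pA to pM is a biological replicate of 1 or more mice. The ischemia groups were TiCY-IFN(A/G)R KO mice at 2 days (letter pJ, 342 cells) against naive IFN(A/G)R KO mice (pJ, 169 cells), and TiCY mice naive (pM, 333 cells), at 2 days (pI, 298 cells) and at 21 days (pH, 234 cells). TiCY mice aged 2 months received tamoxifen, so that Cre, which acts in Tlx-expressing NSCs of the ventricular-subventricular zone (vSVZ), switched on eYFP in these cells and their progeny, and 2 weeks later both carotid arteries were occluded. Naive mice had no occlusion. Wild-type mice (pA to pF, 540 cells) had neither tamoxifen nor ischemia, and mice with a TCF-Lef reporter (pL, 65 cells) were naive; whether the naive knockout and the reporter mice had tamoxifen is not given in the labels. In the field's usage qNSC1 and qNSC2 are quiescent and aNSC active stem cells, which give rise to transit amplifying progenitors (TAP) and then neuroblasts. Cells were sorted with antibodies that include GLAST, O4, PSA-NCAM and Prominin1, from single or pooled mice. The knockout is called by its label, and every knockout cell is from pJ while each TiCY time is 1 letter, so genotype, time and letter cannot be told apart beyond what is said at each comparison.

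The promoters of 7 members are shown because they hold the motifs through which the known upstream factors act, for genes whose levels are described below. Each run is the 200 bases before a RefSeq start site on build GRCm38.p6, 5′ to 3′ on the gene's strand. CArG boxes, CREs and CRE cores (TGACG on either strand) are in capitals.
Fos promoter: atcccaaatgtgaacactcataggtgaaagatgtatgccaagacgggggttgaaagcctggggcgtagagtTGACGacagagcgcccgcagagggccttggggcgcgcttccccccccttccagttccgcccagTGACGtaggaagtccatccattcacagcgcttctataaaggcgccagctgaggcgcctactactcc
Junb promoter: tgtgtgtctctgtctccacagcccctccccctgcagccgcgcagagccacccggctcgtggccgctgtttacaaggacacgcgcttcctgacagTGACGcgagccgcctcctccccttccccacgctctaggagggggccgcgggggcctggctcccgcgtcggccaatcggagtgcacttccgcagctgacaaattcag
Nr4a1 promoter: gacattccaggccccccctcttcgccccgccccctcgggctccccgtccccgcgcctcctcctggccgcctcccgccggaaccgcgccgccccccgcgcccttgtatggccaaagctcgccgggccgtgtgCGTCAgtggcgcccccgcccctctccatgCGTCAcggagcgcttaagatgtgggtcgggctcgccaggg
Egr2 promoter: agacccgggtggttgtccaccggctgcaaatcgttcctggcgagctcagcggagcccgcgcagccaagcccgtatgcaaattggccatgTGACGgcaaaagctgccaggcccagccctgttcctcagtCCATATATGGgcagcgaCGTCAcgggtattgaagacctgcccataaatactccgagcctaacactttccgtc
Zfp36 promoter: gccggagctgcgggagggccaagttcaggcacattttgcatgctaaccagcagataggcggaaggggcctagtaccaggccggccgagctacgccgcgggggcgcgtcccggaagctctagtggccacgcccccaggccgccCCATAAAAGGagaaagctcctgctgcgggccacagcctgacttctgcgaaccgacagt
Btg2 promoter: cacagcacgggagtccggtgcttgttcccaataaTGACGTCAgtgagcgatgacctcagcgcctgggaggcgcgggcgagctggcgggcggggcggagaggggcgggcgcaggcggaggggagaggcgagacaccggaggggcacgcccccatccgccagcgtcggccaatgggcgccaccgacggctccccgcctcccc
Dusp1 promoter: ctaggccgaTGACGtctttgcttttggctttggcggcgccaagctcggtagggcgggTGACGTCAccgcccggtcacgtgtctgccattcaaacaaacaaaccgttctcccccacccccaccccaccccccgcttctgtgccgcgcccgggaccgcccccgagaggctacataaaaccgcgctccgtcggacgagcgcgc

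Fos (chr12:85473690-85473889, plus strand) had CRE cores that begin 129 and 66 bases before the start site, Junb (chr8:84978749-84978948, minus strand) had 1 at 106 bases, and Nr4a1 (chr15:101266646-101266845, plus strand) had them at 69 and 40 bases. Egr2 (chr10:67537669-67537868, plus strand) held a CArG box 72 bases before its start with CRE cores at 111 and 55 bases, and Zfp36 (chr7:28379229-28379428, minus strand) a CArG box at 58 bases. The full CRE stood 166 bases before the start of Btg2 (chr1:134079156-134079355, minus strand) and 143 bases before that of Dusp1 (chr17:26508473-26508672, minus strand), which had a further core at 191 bases.

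Windows of 300 bases, 250 before to 50 after the start, were searched. In the RefSeq promoter set used, 30 of the 37 members and 27025 genes in all had such a window. Egr1, Egr3, Myc, Ier2, Sik1, Arc and Gem had none there and are left out of the counts. The CArG box was in 2 of the 30 members (Egr2 and Zfp36) and in 1.81% of all genes. The CRE, TGACGTCA, was in 3 members (Btg2, Dusp1 and Maff) and in 2.03% of all genes, and its core, TGACG on either strand, which each full CRE also holds, was in 16 members and in 23% of all genes. The AP-1 motif TGANTCA, to which Fos and Jun proteins are known to bind, was in 1 member (Csrnp1) and in 8.97% of all genes. A gene with several listed start sites, such as Egr2, Csrnp1 or Maff, counts when any of its windows holds the motif, so it has more chances of a match. The Egr2 start site with upstream bases chr10:67535299-67535498 had no motif in its window. These are letter matches and not measured sites, and start sites not listed or more distant elements lie outside these windows.

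Of 2584 cells in the count table, 1981 matched a labelled cell, and 603 cells were not used. The matched cells held 3771 to 1842234 counts, with a median of 160621 counts and 4994 detected genes, and the libraries of pA, pB and pE were deeper (median 648839 to 1000343 counts a cell) than those of the other letters (120498 to 304367). The members made up a median of 0.0560% of a cell's counts and at most 6.29%. Astrocyte markers summed to between 6306 and 36270 CPM, the counts of a gene scaled to a common library total, in the GLAST sorts of the ischemia groups, and cells labelled oligodendrocyte had all 6 oligodendrocyte markers higher and all 8 astrocyte markers lower than qNSC1 cells. The wild-type sort named ASTRO held cells labelled as NSCs, TAPs and neuroblasts, and 4 of 6 neuroblast markers were higher there than in the NSC sort, so it is called by its sort name only. For each letter, counts of all its cells with 1 type or sort label were added up where there were 3 or more, and all levels below are CPM of such sums unless said otherwise. In sums, more cells with a transcript and more transcript in each cell cannot be told apart.

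In wild-type naive vSVZ the levels of Fos and Egr1 were low in most sums of qNSC1 cells and oligodendrocytes and high in aNSC and TAP cells, but letters of 1 type often differed by more than types did. Fos, the best known member, had 470.5, 94.4 and 1440 CPM in aNSC cells of pC, pD and pE, and 492, 39.5 and 173 CPM in TAP cells of the same letters. It had 62.4, 52.3, 98.9 and 169.8 CPM in neuroblasts of pA to pD, 0, 695, 136 and 11.3 CPM in qNSC2 cells of pA, pB, pD and pE, 9.03, 388 and 8.59 CPM in oligodendrocytes of pA, pB and pC, and 3.09, 0, 3.78, 78.7 and 14.8 CPM in qNSC1 cells of pA to pE. The aNSC sums all lay above the qNSC1 sums, while qNSC2, neuroblast, TAP and aNSC sums overlapped.

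Egr1, a zinc finger factor used as an activity mark, had 418, 277 and 1108 CPM in aNSC cells, 978, 276 and 731 CPM in TAP cells and 345, 264, 368 and 332 CPM in neuroblasts, in the letter order given for Fos. The level was 0, 703, 114 and 0.686 CPM in qNSC2 cells, 0.164, 185 and 16.7 CPM in oligodendrocytes and 0.343, 0.318, 0.419, 68.8 and 30.9 CPM in qNSC1 cells. No qNSC1 or oligodendrocyte sum reached the lowest neuroblast sum.

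Btg2, an antiproliferative gene linked to the step from proliferating to neurogenic divisions, had 364, 184 and 196 CPM in aNSC cells, 209, 73.6 and 323 CPM in TAP cells and 0, 566, 254 and 32.8 CPM in qNSC2 cells. It stayed between 22.6 and 31.9 CPM in the 5 qNSC1 sums, and at 27.1, 11.2 and 3.82 CPM in oligodendrocytes and 16.4, 6.33, 74.8 and 286 CPM in neuroblasts. Jun, the partner of Fos in AP-1, had 602, 256 and 156 CPM in TAP cells, 188, 275 and 78.4 CPM in aNSC cells and 34.1, 44.4, 59.2, 137 and 50.9 CPM in qNSC1 cells. Jun was thus present in every one of these sums, whereas Atf3, a stress-induced factor, was listed at 0 in all 12 sums of qNSC1, qNSC2 and aNSC cells. The qNSC2 sum of pB holds 3 cells and stood apart, with 413 CPM of Junb and 335 CPM of Fosb against at most 53.6 and 5.96 CPM in the other qNSC2 sums.

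The other core genes followed this order less. Junb had 12.7, 19 and 102 CPM in aNSC cells, 14.1, 2.73, 36.9 and 37.7 CPM in neuroblasts and 8.01, 7.95, 0.419, 11.8 and 4.62 CPM in qNSC1 cells, with the aNSC sums above the qNSC1 sums. Fosb had 18.7, 18.2 and 179 CPM in aNSC cells against 0.114, 0.212, 0, 23.3 and 2.23 CPM in qNSC1 cells, which overlap through pD. Ier2, a nuclear regulator induced by growth factors, had 26.8, 67.7 and 32.7 CPM in TAP cells, 28.4, 29.5 and 5.76 CPM in aNSC cells and 2.63, 2.33, 5.04, 4.08 and 5.22 CPM in qNSC1 cells. All TAP and aNSC sums of Ier2 were above all qNSC1 sums. Nr4a1 stayed at or below 37.3 CPM in every sum but those of qNSC2 cells, which had 0, 74.4, 88.1 and 0 CPM. Zfp36 was also led by qNSC2 cells, with 1.31, 46, 72 and 8.75 CPM, against 2.24, 3.69 and 0.640 CPM in aNSC cells. Dusp1 was led by neuroblasts, with 117, 49.3, 40.1 and 0 CPM, against 15.8, 13.2, 6.71, 0 and 26.8 CPM in qNSC1 cells, and the letters overlap. Wild-type striatal astrocytes of pE (12 cells) had 46.1 CPM of Fos, 9.28 CPM of Egr1 and 211 CPM of Jun.

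**Figure D1:**
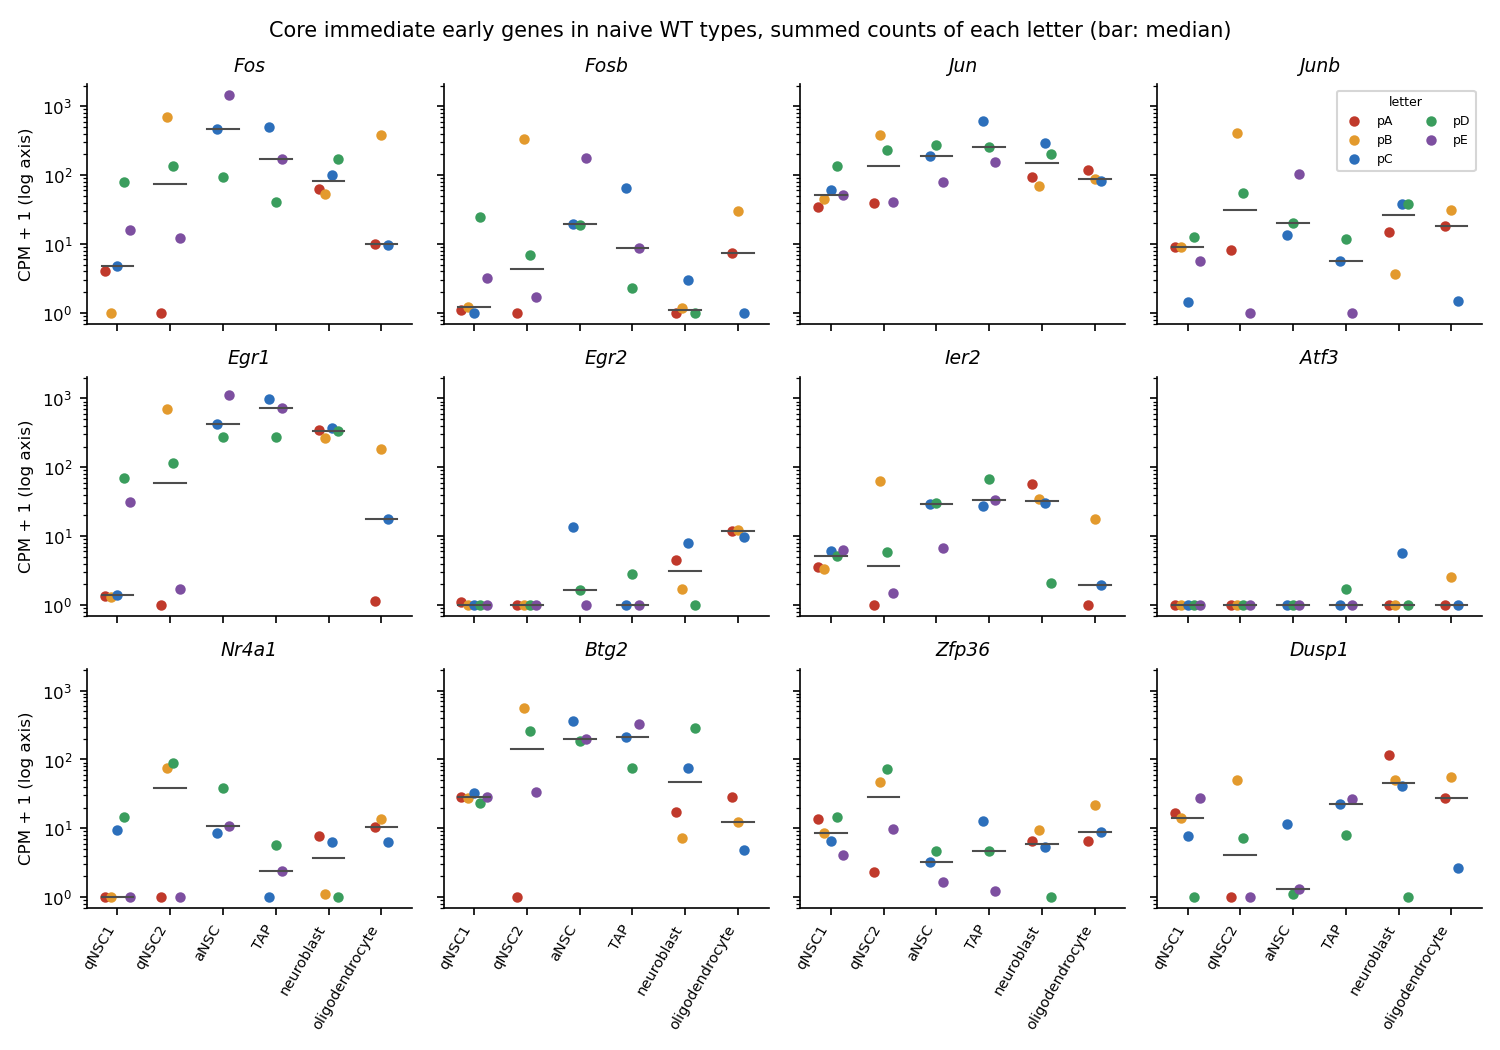
CPM + 1 (log axis) of the 12 core genes in the summed counts of 6 wild-type naive types, 1 point a letter and a bar at the median. Fos and Egr1 in aNSC cells and Egr1 in TAP cells lie above the qNSC1 points, Fos in TAP cells overlaps them (39.5 CPM in pD), and the letters of qNSC2 spread over the whole axis.

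Along the lineage, the step contrasts gave no member called by edgeR's quasi-likelihood test (22 sums, 14915 genes tested). For qNSC2 over qNSC1, 0 of 34 members tested passed against 0.0805% of all genes, with 5 at an unadjusted p under 0.05 and 1 called by DESeq2. The median log2 difference of the members was 1.18, against -0.11 over all genes, and 26 of 34 were higher, but without pB, whose qNSC2 sum holds 3 cells, the median was 0.22 and 18 of 33 were higher. For aNSC over qNSC2, 0 of 34 passed against 0.194% of all genes, with 5 at an unadjusted p under 0.05 and 2 called by DESeq2. For TAP over aNSC it was 0 of 34 against 0% of all genes, with 2 at an unadjusted p under 0.05 and 0 called by DESeq2. For neuroblast over TAP it was 0 of 34 against 0.0939%, with 1 at an unadjusted p under 0.05, 0 called by DESeq2 and a median log2 difference of -0.84, which was 0.00 without pD. With the letter as a block still 0 members passed in each of these steps, while of 15794 genes 16 were higher and 44 lower for qNSC2 over qNSC1, 174 and 133 for aNSC over qNSC2, 7 and 11 for TAP over aNSC, and 1 and 16 for neuroblast over TAP.

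Oligodendrocytes differed from qNSC1 cells in effectors, feedback genes and Egr2: 7 of 34 members passed, 3 higher and 4 lower, against 11% of all genes. Rhob, a small GTPase of the cytoskeleton, had 620, 370.1 and 367 CPM in oligodendrocytes of pA, pB and pC, against 76.3, 45, 34.4, 23 and 26.8 CPM in qNSC1 cells of pA to pE (log2 3.70 ± 0.65 (SE), edgeR adjusted p = 0.000518). Arc, which in neurons trims synaptic receptors, had 71.1, 61.2 and 35.8 CPM against 0.343, 0, 0, 0 and 0 CPM, and its sums differed by 916-fold with a counting interval of 313 to 4445 because qNSC1 cells held 3 counts (edgeR adjusted p = 0.000852). Egr2, known as a driver of myelination in Schwann cells, had 10.8, 11.3 and 8.59 CPM against 0.114, 0, 0, 0 and 0 CPM, with 1 count in qNSC1 cells and a ratio of 499 (89.1 to 19759; edgeR adjusted p = 0.00954). For all 3 genes the letters of the types did not overlap.

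The 4 lower members were feedback and growth arrest genes and Gem. Dusp6, the phosphatase of ERK kinases, was listed at 0 in all 3 oligodendrocyte sums against 62.3, 21.4, 57.1, 6.71 and 32.2 CPM in qNSC1 cells, at least 421-fold lower (edgeR adjusted p = 0.00525). Ier5 was also at 0 against 7.21, 1.80, 34, 10.9 and 1.58 CPM, at least 73.5-fold lower (edgeR adjusted p = 0.00864). Gadd45g, a stress and growth arrest gene, had 0, 0.0719 and 0.238 CPM against 26.8, 10.8, 62.9, 322 and 11 CPM, with 3 counts in oligodendrocytes and a ratio of 804 (275 to 3899; edgeR adjusted p = 0.00451). Gem, a GTPase that damps calcium channels, had 0, 0.0360 and 0 CPM against 12.1, 0.318, 25.6, 8.89 and 23.5 CPM, with 1 count and a ratio of 552 (98.8 to 21841; edgeR adjusted p = 0.0163). Arc and Rhob stayed called under every alternative tried, while Egr2 and Gem lost the call when pA, pB or pC was left out (adjusted p of Egr2 up to 0.0694 and of Gem up to 0.151). Dusp6 lost it without pB or pC (0.054 and 0.0607), and Ier5 and Gadd45g without pC (0.0964 and 0.0555). Among the other fixed lists, the upstream kinase Mapk3 rose (log2 2.76 ± 0.55), and of 29 dissociation-linked genes 4 rose (Hsp90aa1, Hsp90ab1, Errfi1 and Litaf) and Ccn1 fell. Of 10 later response genes Plk3 rose, and Trib1 and Pim1 fell.

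The surface sorts of wild-type mice use no type label, and they were compared over the letters pA, pB and pC. The NSC sort of pA and pB also held cells labelled oligodendrocyte, so it is not a pure stem cell sample. In the OLIGO sort over the NSC sort, 4 of 32 members passed, all lower, against 6.10% of all genes (14348 genes tested). Dusp6 was at 0 in the OLIGO sums against 36, 14.4 and 48.7 CPM in the NSC sums, at least 248-fold lower (edgeR adjusted p = 0.00177), and Ier5 was at 0 against 11.8, 2.87 and 18.2 CPM, at least 72.1-fold lower (edgeR adjusted p = 0.0243). Gadd45g had 0, 0.0942 and 0.238 CPM against 18.8, 10.6 and 50.5 CPM, a ratio of 176 (59.7 to 856) on 3 counts (edgeR adjusted p = 0.00215). Gem was at 0 against 14.6, 0.310 and 7.53 CPM, at least 52.8-fold lower (edgeR adjusted p = 0.0492, and 0.0649 with the letter as a block). The groups did not overlap for any of these 4 genes, and Rhob, called in oligodendrocytes, had 648, 355 and 367 CPM against 115, 243 and 30.6 CPM without a call here. Leaving out pA, pB or pC ended the calls of Ier5 (adjusted p 0.156, 0.122 and 0.139) and Gem (0.338, 0.142 and 0.22), and leaving out pA that of Gadd45g (0.0541). The OLIGO and oligodendrocyte comparisons share cells, so they are not independent of each other. Of the other lists, Ccn1 and Pim1 fell in the OLIGO sort.

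In the NB sort over the NSC sort, Arc alone passed, so 1 of 32 members against 11.8% of all genes, and 2 passed with the letter as a block. Arc had 0.0793, 0.209 and 0 CPM in the NB sums against 2.66, 61.8 and 0 CPM in the NSC sums (log2 -7.42 ± 2.08 (SE), edgeR adjusted p = 0.0359), so the NSC level rests on pB, and the groups overlap at 0 in pC. The NSC sort of pA and pB included cells labelled oligodendrocyte, a type with more Arc than qNSC1 cells. Their part in the NSC level of Arc was not tested. Without pA, pB or pC the adjusted p of Arc was 0.18, 0.23 and 0.068. Of the other lists in this sort, the SRF coactivator Mrtfb and 6 of 29 dissociation-linked genes (Ccn1, Bhlhe40, Bag3, Litaf, Mt1 and Mt2) fell, and Rgs2 and Plk2 rose. In the ASTRO sort over the NSC sort, 0 of 32 passed against 0.0906% of all genes, with 2 at an unadjusted p under 0.05 and 0 called by DESeq2. Fos had 3.79, 166 and 386 CPM in the ASTRO sums and 0, 95.5 and 114 CPM in the NSC sums, which overlap. Dusp1, the phosphatase that ends MAP kinase signals, had 119, 53.7 and 45.2 CPM in the NB sums and 7.80, 18.4 and 6.20 CPM in the NSC sums, without overlap but not called. Egr1 had 336, 318 and 348 CPM in the NB sums and 38.2, 167 and 606 CPM in the ASTRO sums against 0.166, 60.4 and 122 CPM in the NSC sums, and only the NB sums are clear of the NSC sums.

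Among naive cells of pM (TiCY) and pJ (knockout), levels of Fos and Egr1 were higher in qNSC2 and aNSC cells than in astrocytes of either region. Fos had 614 CPM in knockout and 1352 CPM in TiCY aNSC cells, 281 and 828 CPM in qNSC2 cells, and 223 and 346 CPM in TAP cells, in the same order of genotypes. It had 0 and 262 CPM in neuroblasts, 7.99 and 45.2 CPM in striatal astrocytes, and 23.5 and 4.66 CPM in vSVZ astrocytes. Egr1 had 556 and 681 CPM in aNSC cells, 264 and 155 CPM in qNSC2 cells, against 6.42 and 0 CPM in vSVZ astrocytes. For both genes every aNSC and qNSC2 sum lay above every astrocyte sum. Junb had 118 and 101 CPM in qNSC2 cells against 6.51 and 3.80 CPM in vSVZ astrocytes, and Ier2 had 3.25 and 10.2 CPM against 0 and 0.345 CPM. In the knockout 1 cell gave 88.6% of the qNSC2 and 97.5% of the aNSC Fos counts, so these naive levels are those of few cells.

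By edgeR's test over 16009 genes, 0 of 32 members passed for naive qNSC2 over vSVZ astrocytes against 0.0125% of all genes, with 7 at an unadjusted p under 0.05 and 2 called by DESeq2, and 26 of 32 were higher. The median log2 difference was 1.60, or 1.51 with members at 0 in a whole group set to their bound (the floor of 3 counts over the group). For striatal over vSVZ astrocytes 0 of 32 passed against 0%, with 1 at an unadjusted p under 0.05 and 0 by DESeq2. For aNSC over qNSC2 0 of 32 passed against 0.05%, with 2 at an unadjusted p under 0.05 and 1 by DESeq2, and for TAP over aNSC 0 of 32 against 0.0312%, with 2 and 1. For neuroblast over TAP 1 of 32 passed against 4.10% of all genes. That gene was Btg2, with 0 and 2.65 CPM in knockout and TiCY neuroblasts against 26.8 and 57.1 CPM in TAP cells (log2 -4.89 ± 1.12 (SE), edgeR adjusted p = 0.0298), and its adjusted p was 0.408 when only those 2 types were fitted.

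At 2 days after ischemia the members were higher in the striatal GLAST sort, the cells sorted from the tissue next to the niche, than in naive cells. All 35 tested members had a positive log2 difference, and 18 of 35 passed edgeR's test, all higher, against 2.30% of all 22409 genes tested. The median log2 difference was 4.24 over the members (4.02 with the 4 members at 0 in both naive sums set to their bound) and 0.36 over all genes. The fit used 5 sums (knockout 2 days and naive, TiCY naive, 2 days and 21 days) with terms for knockout and time. It left 1 residual degree of freedom, so the spread comes from the trend over genes and the p-values lean on that trend. Knockout mice at 2 days also carry the TiCY label, which naive knockout mice lack, and the fit has no term for that difference. The 2 day sums hold 114 knockout and 122 TiCY cells, and the naive sums 35 knockout and 131 TiCY cells, of which every one is labelled striatal astrocyte.

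**Figure D2:**
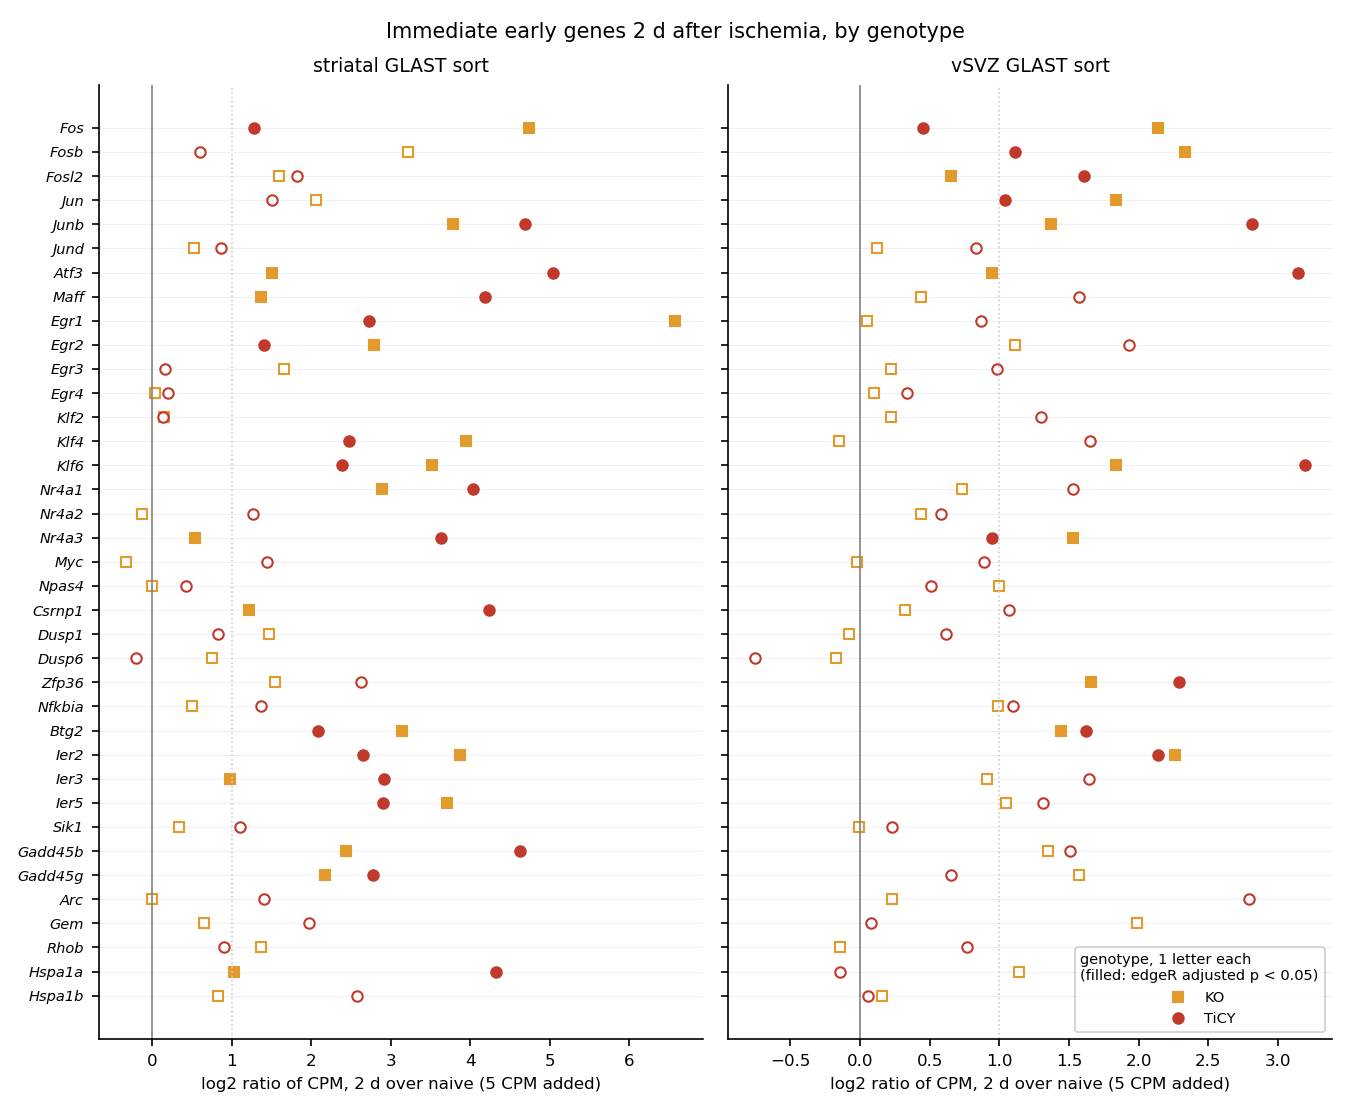
Log2 ratio of CPM (5 CPM added) at 2 days over naive for each member, in the striatal (left) and vSVZ (right) GLAST sorts; squares are knockout, circles TiCY, and filled symbols mark members called by edgeR over both genotypes. Most striatal points lie right of 0 and most vSVZ points are nearer to it.

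Among the leucine zipper factors, Fos had 342 CPM in knockout and 117 CPM in TiCY cells at 2 days, against 7.99 and 45.2 CPM in naive knockout and naive TiCY cells (log2 3.23 ± 0.83 (SE), edgeR adjusted p = 0.00795). Its partner Junb had 79.6 CPM in knockout and 192 CPM in TiCY cells at 2 days, against 1.14 and 2.61 CPM in naive knockout and naive TiCY cells (log2 6.05 ± 0.90 (SE), edgeR adjusted p = 8.77e-09). Atf3, induced in injured cells, had 9.12 CPM in knockout and 161 CPM in TiCY cells at 2 days, against 0 and 0.0621 CPM in naive knockout and naive TiCY cells, where the naive value is 1 count in all and the pooled ratio is 2746 (493 to 108456; edgeR adjusted p = 7.95e-10). For these 3 genes both 2 day sums lay above both naive sums, but the genotypes ranked differently: Fos was higher in the knockout at 2 days, and Junb and Atf3 in TiCY. Maff, a small Maf factor, had 7.91 CPM in knockout and 91.7 CPM in TiCY cells at 2 days, against 0 and 0.311 CPM in naive knockout and naive TiCY cells (log2 8.23 ± 1.58 (SE), edgeR adjusted p = 3.66e-05). Jun had 414 CPM in knockout and 245 CPM in TiCY cells at 2 days, against 95.4 and 83.4 CPM in naive knockout and naive TiCY cells and did not pass (log2 1.72 ± 0.70 (SE), edgeR adjusted p = 0.261), nor did Fosb with 41.7 CPM in knockout and 4.27 CPM in TiCY cells at 2 days, against 0 and 1.12 CPM in naive knockout and naive TiCY cells (edgeR adjusted p = 0.286). Fosl2 and Jund were not called.

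Of the zinc finger factors, Egr1 had 474 CPM in knockout and 88.9 CPM in TiCY cells at 2 days, against 0 and 9.13 CPM in naive knockout and naive TiCY cells (log2 6.19 ± 0.99 (SE), edgeR adjusted p = 1.73e-07). Egr2 had 29.6 CPM in knockout and 8.23 CPM in TiCY cells at 2 days, against 0 and 0 CPM in naive knockout and naive TiCY cells, at least 82-fold higher (edgeR adjusted p = 0.00674). Klf4, a factor of stem cell and stress states, had 72.3 CPM in knockout and 32.2 CPM in TiCY cells at 2 days, against 0 and 1.74 CPM in naive knockout and naive TiCY cells (log2 5.96 ± 1.31 (SE), edgeR adjusted p = 0.000678), and Klf6, a factor of injury and axon growth responses, had 223 CPM in knockout and 174 CPM in TiCY cells at 2 days, against 14.8 and 29.4 CPM in naive knockout and naive TiCY cells (log2 3.11 ± 0.74 (SE), edgeR adjusted p = 0.00238). All 4 were higher in the knockout than in TiCY at 2 days, and none of their 2 day sums overlapped a naive sum. Egr3 was listed at 0 in both naive sums and at 10.7 and 0.581 CPM at 2 days, at least 16.2-fold higher but not called (edgeR adjusted p = 0.418), and Egr4 and Klf2 were too low to be tested.

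Of the Nr4a receptors, orphan nuclear receptors that act without a ligand, Nr4a1 had 40.5 CPM in knockout and 129 CPM in TiCY cells at 2 days, against 1.14 and 3.17 CPM in naive knockout and naive TiCY cells (log2 5.15 ± 0.97 (SE), edgeR adjusted p = 2.43e-05). Nr4a3 had 2.23 CPM in knockout and 79 CPM in TiCY cells at 2 days, against 0 and 1.80 CPM in naive knockout and naive TiCY cells (log2 5.58 ± 1.53 (SE), edgeR adjusted p = 0.016), and 1 cell gave 92.3% of the TiCY counts at 2 days. The Nr4a3 call is thus mostly a value of 1 cell, whereas Nr4a1 was higher in both genotypes. Csrnp1 had 46.1 CPM in knockout and 172 CPM in TiCY cells at 2 days, against 17.1 and 4.41 CPM in naive knockout and naive TiCY cells (log2 3.24 ± 0.91 (SE), edgeR adjusted p = 0.022). Csrnp1 overlaps the microglial receptor gene Cx3cr1 on the same strand, which had 1.77 and 34.8 CPM in knockout and TiCY cells at 2 days against 0 and 0.124 CPM in naive cells, so their reads may be split between them. Nr4a2, Myc and Npas4 did not pass.

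The feedback and growth arrest genes gave 6 calls of 11. Ier2 had 68 CPM in knockout and 33.7 CPM in TiCY cells at 2 days, against 0 and 1.18 CPM in naive knockout and naive TiCY cells (log2 6.32 ± 1.29 (SE), edgeR adjusted p = 0.000142). Ier5 had 60.4 CPM in knockout and 39.7 CPM in TiCY cells at 2 days, against 0 and 0.994 CPM in naive knockout and naive TiCY cells (log2 6.61 ± 1.36 (SE), edgeR adjusted p = 0.000158). Ier3 had 4.84 CPM in knockout and 34.4 CPM in TiCY cells at 2 days, against 0 and 0.248 CPM in naive knockout and naive TiCY cells (log2 7.23 ± 2.18 (SE), edgeR adjusted p = 0.042), so all 3 of the Ier genes were higher in both genotypes. Btg2 had 106 CPM in knockout and 50.5 CPM in TiCY cells at 2 days, against 7.53 and 8.14 CPM in naive knockout and naive TiCY cells (log2 3.09 ± 0.86 (SE), edgeR adjusted p = 0.0183). The DNA damage response relatives Gadd45b and Gadd45g split by genotype in the other direction. Gadd45b had 23.4 CPM in knockout and 176 CPM in TiCY cells at 2 days, against 0.228 and 2.36 CPM in naive knockout and naive TiCY cells (log2 6.25 ± 1.02 (SE), edgeR adjusted p = 3.22e-07), and Gadd45g had 191 CPM in knockout and 591 CPM in TiCY cells at 2 days, against 38.6 and 82 CPM in naive knockout and naive TiCY cells (log2 2.46 ± 0.72 (SE), edgeR adjusted p = 0.0318). Zfp36, which destabilises AU-rich messages, had 29.4 CPM in knockout and 38.9 CPM in TiCY cells at 2 days, against 6.85 and 2.11 CPM in naive knockout and naive TiCY cells and did not pass (edgeR adjusted p = 0.3), nor did Dusp1 with 16.4 CPM in knockout and 22.3 CPM in TiCY cells at 2 days, against 2.74 and 10.4 CPM in naive knockout and naive TiCY cells (edgeR adjusted p = 0.787).

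The inducible chaperone Hspa1a had 5.21 CPM in knockout and 249 CPM in TiCY cells at 2 days, against 0 and 7.71 CPM in naive knockout and naive TiCY cells (log2 5.26 ± 0.97 (SE), edgeR adjusted p = 1.3e-05), so its call rests on the TiCY cells. Hspa1b, a near-identical copy whose reads can be assigned to either gene, had 3.91 CPM in knockout and 53.6 CPM in TiCY cells at 2 days, against 0 and 4.79 CPM in naive knockout and naive TiCY cells and did not pass (edgeR adjusted p = 0.158). Rhob, Gem and Arc had no call, and Arc was listed at 0 in 3 of the 4 sums. Of the 18 called members, 10 stayed called under every alternative tried: Junb, Atf3, Maff, Klf4, Klf6, Nr4a1, Ier2, Ier5, Gadd45b and Hspa1a. Without cells labelled neurogenic striatal astrocyte or reactive astrocyte, 11 of 34 members passed, and Fos (edgeR adjusted p = 0.0981), Egr2 (0.866), Nr4a3 (0.112), Csrnp1 (0.05), Btg2 (0.821), Ier3 (0.265) and Gadd45g (0.404) were no longer called. Their log2 differences were then 2.69, 9.02, 5.55, 3.30, 1.98, 6.88 and 2.01, in the same order of genes. Without the 21 day sum of pH, Fos, Csrnp1 and Gadd45g missed the threshold (0.0503, 0.0643 and 0.0713).

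In the vSVZ GLAST sort, 11 of 37 members passed at 2 days, all higher, against 10.9% of all 24153 genes tested. The median log2 difference was 1.28 over the members and 0.08 over all genes, and 36 of 37 members were higher, the exception being Dusp6 at -0.89 ± 1.08 (SE). Many more genes of the table passed in this sort than in the striatal one.

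The naive vSVZ sort already held more of several members than the naive striatal sort did, as the levels of Fos and Egr1 show. It also held cells labelled qNSC2, aNSC, TAP and neuroblast, whereas the naive striatal cells were all labelled astrocyte. Among cells labelled astrocyte, those of the vSVZ had more Fos and Egr1 than striatal ones in the naive knockout, and less in naive TiCY. Region and make-up of the sort thus cannot be told apart in these sums. Fos had 553 CPM in knockout and 408 CPM in TiCY cells at 2 days, against 122 and 297 CPM in naive knockout and naive TiCY cells (log2 1.25 ± 0.41 (SE), edgeR adjusted p = 0.0279). Egr1 had 138 CPM in knockout and 204 CPM in TiCY cells at 2 days, against 132 and 109 CPM in naive knockout and naive TiCY cells and did not pass (log2 0.40 ± 0.40 (SE), edgeR adjusted p = 0.624). Jun had 634 CPM in knockout and 345 CPM in TiCY cells at 2 days, against 174 and 166 CPM in naive knockout and naive TiCY cells (log2 1.39 ± 0.40 (SE), edgeR adjusted p = 0.0084), and Junb had 112 CPM in knockout and 241 CPM in TiCY cells at 2 days, against 40.3 and 30.1 CPM in naive knockout and naive TiCY cells (log2 2.17 ± 0.44 (SE), edgeR adjusted p = 3.53e-05). The 2 day sums lay above the naive sums for all 4 of these genes, by little for Egr1. Fosb had 22.8 CPM in knockout and 53.1 CPM in TiCY cells at 2 days, against 0.540 and 21.9 CPM in naive knockout and naive TiCY cells (log2 3.07 ± 0.70 (SE), edgeR adjusted p = 0.000371), and Fosl2 had 2.82 CPM in knockout and 17.7 CPM in TiCY cells at 2 days, against 0 and 2.45 CPM in naive knockout and naive TiCY cells (log2 4.27 ± 1.42 (SE), edgeR adjusted p = 0.0294), both with naive TiCY levels well above the naive knockout. Atf3 had 6.39 CPM in knockout and 62 CPM in TiCY cells at 2 days, against 0.883 and 2.59 CPM in naive knockout and naive TiCY cells (log2 3.68 ± 0.80 (SE), edgeR adjusted p = 0.000173), again higher in TiCY at 2 days.

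Klf6 had 117 CPM in knockout and 335 CPM in TiCY cells at 2 days, against 29.1 and 32.3 CPM in naive knockout and naive TiCY cells (log2 2.62 ± 0.44 (SE), edgeR adjusted p = 1.94e-07), the smallest adjusted p of a member in this sort. Nr4a3 had 9.42 CPM in knockout and 13.7 CPM in TiCY cells at 2 days, against 0 and 4.66 CPM in naive knockout and naive TiCY cells (log2 4.09 ± 1.41 (SE), edgeR adjusted p = 0.0374). Zfp36 had 22 CPM in knockout and 53.2 CPM in TiCY cells at 2 days, against 3.53 and 6.87 CPM in naive knockout and naive TiCY cells (log2 2.72 ± 0.69 (SE), edgeR adjusted p = 0.00171). Btg2, by contrast, was near equal in the genotypes at 2 days: it had 141 CPM in knockout and 136 CPM in TiCY cells at 2 days, against 48.5 and 40.8 CPM in naive knockout and naive TiCY cells (log2 1.56 ± 0.42 (SE), edgeR adjusted p = 0.00373). Ier2 had 41.6 CPM in knockout and 59.7 CPM in TiCY cells at 2 days, against 4.71 and 9.67 CPM in naive knockout and naive TiCY cells (log2 2.81 ± 0.59 (SE), edgeR adjusted p = 8.67e-05). Of the 11 calls, Jun, Junb, Atf3, Klf6, Zfp36, Btg2 and Ier2 stayed under every alternative. Without the 21 day sum, 7 members passed, and Fos (edgeR adjusted p = 0.127), Fosb (0.0733), Fosl2 (0.0986) and Nr4a3 (0.193) did not. Egr2 (edgeR adjusted p = 0.0593), Nr4a1 (0.116) and Dusp1 (0.896) did not pass.

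Shares of cells with a read were also higher at 2 days after each cell was thinned to 50000 counts and shallower cells were left out. In the striatal sort 40% of 90 knockout and 40.2% of 122 TiCY cells had a Fos read at 2 days, against 10.3% of 29 naive knockout and 9.43% of 106 naive TiCY cells. For Junb the shares were 35.6% and 59% against 3.45% and 5.66%, and for Egr1 27.8% and 46.7% against 0% and 4.72%. The share of cells with a read was thus higher at 2 days in both genotypes, and TiCY, with less summed Egr1 than the knockout, had the larger share of cells with it. In the vSVZ sort 46.3% of 177 knockout and 38.8% of 152 TiCY cells had a Fos read, against 13.9% of 115 and 24.3% of 177 naive cells, and Ier2 was read in 29.9% and 32.2% against 4.35% and 7.35%. Unthinned, the striatal Fos shares were 42.1% and 46.7% against 8.57% and 10.7%.

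Markers of cell types differed between the same sums. Summed astrocyte markers were 24908 and 7832 CPM in knockout and TiCY striatal cells at 2 days against 33318 and 36270 CPM in naive cells, and 10466 and 6306 against 24136 and 28369 CPM in the vSVZ, where 7 of 8 astrocyte markers fell; in the striatal sort edgeR called 0 of 8, with 1 at an unadjusted p under 0.05 and 0 called by DESeq2. Neuroblast markers summed to 457 and 302 CPM against 76.3 and 68.7 CPM in the striatum, and to 1920 and 3409 against 466 and 523 CPM in the vSVZ, and 4 of 6 rose in each sort. Top2a, a gene of dividing cells, rose in the striatal sort (log2 6.26 ± 0.89, edgeR adjusted p = 1.36e-09), and the myelin gene Mog, 1 of 6 oligodendrocyte markers, in the vSVZ (log2 2.17 ± 0.72, edgeR adjusted p = 0.0277). Striatal microglia markers summed to 31.1 and 47.9 CPM against 9.59 and 33.9 CPM, with Tmem119, C1qa, C1qb and Aif1 at 0 in the knockout and C1qb and Aif1 at 0 in TiCY at 2 days, 6 of 8 at 0 in naive knockout cells, and Tmem119 and C1qa at 0 in naive TiCY cells. Striatal endothelial markers summed to 7.17 and 119 CPM against 1.14 and 4.79 CPM, and pericyte markers to 81.6 and 42.2 against 66.4 and 60.5 CPM. In the vSVZ these sums were 24.8 and 22.7 against 16.1 and 32.9 CPM for microglia, 4.84 and 26.9 against 2.06 and 5.47 CPM for endothelium, and 21.2 and 29.1 against 55.9 and 35.1 CPM for pericytes. By edgeR 0 of the microglia, endothelial and pericyte markers passed in either sort; in the striatal sort 1 microglia and 1 endothelial marker had an unadjusted p under 0.05 and 1 of each was called by DESeq2, and in the vSVZ 1 microglia and 1 pericyte marker had such a p and DESeq2 called 1 microglia marker. The part of these cells in the members' levels was not tested.

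Upstream of the members few genes passed. Of 19 upstream factors and kinases, 0 passed by edgeR in the striatal sort, with 1 at an unadjusted p under 0.05 and 0 called by DESeq2 (median log2 0.41), and in the vSVZ 1 rose, the CREB coactivator Crtc2 (log2 1.58 ± 0.42, edgeR adjusted p = 0.00346). Of the later response genes, 6 of 15 rose in the striatal sort (Fosl1, Nptx2, Tnfrsf12a, Ccn2, Plk2 and Trib1) and 2 of 14 in the vSVZ (Tnfrsf12a and Ccn2). Tnfrsf12a, the receptor of the cytokine TWEAK, gave log2 12 ± 1.22 in the striatum (edgeR adjusted p = 1.02e-18) and 4.70 ± 0.74 in the vSVZ (3.36e-08). Of 30 other genes linked to tissue dissociation, 5 rose in the striatal sort (Socs3, Cebpd, Mcl1, Nfkbiz and Errfi1), and in the vSVZ 5 rose (Socs3, Cebpd, Mcl1, Hsp90ab1 and Litaf) and Dnajb4 fell. Socs3, which ends JAK and STAT signals, gave log2 7.57 ± 1.16 in the striatum (edgeR adjusted p = 2.76e-08) and 4.23 ± 0.51 in the vSVZ (1.39e-13). The median of that list was log2 1.40 and 0.79. All cells were dissociated before they were sorted, so handling and the tissue's own response cannot be told apart.

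Within TiCY and within the knockout each time is 1 letter or part of one, so the next comparisons have no test. In the knockout the 2 day mice are TiCY-IFN(A/G)R KO and the naive mice IFN(A/G)R KO. Time and the TiCY label cannot be told apart there. A gene counts as higher or lower when the CPM, with 5 added to each side, differ 2-fold or more, among genes at 10 CPM or more in 1 of the groups, and the shares of all genes are in either direction. The members with the 5 largest ratios are named in each. The exact Poisson 95% intervals, which cover counting error only, reached a median of 7.73% above a named value of 10 CPM or more and at most 71%, and reads that share a PCR source are not independent molecules.

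In the striatal GLAST sort, 20 of 25 members were higher at 2 days than in naive cells in the knockout, none lower, against 35.8% of all genes. In TiCY it was 25 of 28, none lower, against 45.1%. The knockout was led by Egr1, 474 CPM (461 to 487) against 0 in naive cells and at least 692-fold higher, and Fos, 342 CPM (331 to 353) against 7.99 CPM (5.57 to 11.1). Klf4, 72.3 CPM, and Ier2, 68 CPM, were also at 0 in naive knockout cells (at least 106-fold and 99.4-fold), and Junb was 79.6 against 1.14 CPM. TiCY was led instead by Atf3, 161 CPM (158 to 164) against 0.0621 CPM (0.00157 to 0.346), Junb, 192 against 2.61 CPM, and Gadd45b, 176 against 2.36 CPM, then Hspa1a, 249 against 7.71 CPM, and Csrnp1, 172 against 4.41 CPM. Junb alone was among the 5 in both genotypes.

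In the vSVZ sort 14 of 23 members were higher at 2 days in the knockout, against 30.8% of all genes, and 20 of 33 in TiCY, against 37.8%, with none lower in either. The knockout was led by Fosb, 22.8 CPM (21.3 to 24.5) against 0.540 CPM (0.269 to 0.966), Ier2, 41.6 against 4.71 CPM, and Fos, 553 against 122 CPM, then Gem, 47 against 8.05 CPM, and Klf6, 117 against 29.1 CPM. TiCY was led by Klf6, 335 CPM (329 to 341) against 32.3 CPM (30.2 to 34.4), Atf3, 62 against 2.59 CPM, and Junb, 241 against 30.1 CPM, then Arc, 31.5 against 0.280 CPM, and Zfp36, 53.2 against 6.87 CPM. Single cells weigh heavily there: 1 cell gave 72.3% of the Atf3, 75.5% of the Arc and 64.5% of the Zfp36 counts.

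By 21 days fewer members stood apart from naive TiCY cells. In the striatal sort 6 of 14 were higher and none lower, against 21.2% of all genes. Gem was 60.3 against 7.58 CPM, with 79.8% of its counts from 1 cell, and Egr1 was 39 against 9.13 CPM. Nr4a2 was 10.6 against 0.746 CPM, Ier2 11.7 against 1.18 CPM, and Fos 118 CPM (112 to 124) against 45.2 CPM (42 to 48.6), as high as the TiCY sum at 2 days but with 57.9% from 1 cell. The series of TiCY striatal Junb was 2.61 CPM naive, 192 CPM at 2 days and 8.36 CPM at 21 days. The corresponding Atf3 levels were 0.0621, 161 and 1.76 CPM, so both genes were far below their 2 day levels. In the vSVZ 4 of 19 differed, 3 higher and 1 lower, against 17.3% of all genes, close to that background. Jun was 393 against 166 CPM, Btg2 102 against 40.8 CPM and Junb 65.6 against 30.1 CPM, while Klf4 was lower at 11.7 against 33.8 CPM, and Dusp6, 3.59 against 12.2 CPM, was just inside 2-fold.

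The knockout cells of pJ are labelled by type at both times and share a letter, but only the 2 day mice carry the TiCY label. In striatal astrocytes (82 cells at 2 days, 35 naive) 16 of 22 members were higher and none lower at 2 days, against 32.8% of all genes. Egr1, 147 CPM (138 to 156), Klf4, 79.9 CPM, and Ier2, 40.5 CPM, were each at 0 in naive cells, at least 214-fold, 117-fold and 59.1-fold higher. Fos was 166 against 7.99 CPM and Junb 52.9 against 1.14 CPM. In vSVZ astrocytes (36 and 79 cells) 9 of 14 were higher, against 38.0%, but several rest on 1 cell. Hspa1a, 36.9 CPM against 0, Ier3, 17.4 against 1.10 CPM, and Npas4, 13.2 CPM against 0, had 95.7%, 100% and 100% of their counts in 1 cell, and Hspa1a and Npas4 were at least 146-fold and 52-fold higher. Gem was 46.8 against 8.46 CPM, and Jun 290.5 CPM (277 to 305) against 101 CPM (95.7 to 107).

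In knockout qNSC2 cells (67 at 2 days, 31 naive) 15 of 25 members were higher and none lower, against 39.9% of all genes. Fosb was 41.1 CPM (37.2 to 45.4) against 1.02 CPM (0.330 to 2.37), Ier2 58.2 against 3.25 CPM, Zfp36 57.9 against 5.08 CPM, and Gem 106 against 13 CPM. Egr2 was 27.5 CPM against 0, at least 45.2-fold higher. In aNSC cells (24 at 2 days, 7 naive) 22 of 27 differed, 21 higher and 1 lower, against 53.5%. Jun was 1279 CPM (1244 to 1314) against 14.1 CPM (7.50 to 24.1), and Klf6, Gem, Fosb and Nfkbia, an inhibitor of NF-κB, had 180.2, 85.1, 83.8 and 61.7 CPM against 0. These are at least 55.4-fold, 26.2-fold, 25.8-fold and 19-fold higher. The naive aNSC sum is thin: 1 of its 7 cells gave 97.5% of its Fos counts.

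In TAP cells and neuroblasts members lay on both sides of the naive level. In knockout TAP cells (21 at 2 days, 9 naive) 13 of 23 members differed, 4 higher and 9 lower, against 42.3% of all genes. Egr1 was 99.7 CPM (89.5 to 111) against 613 CPM (568 to 659), Nr4a1 12.8 against 112 CPM, Egr2 2.28 against 46.7 CPM and Klf4 1.42 against 31.1 CPM, all lower, while Gadd45g was higher at 308 against 32.9 CPM. In neuroblasts (76 and 8 cells) 10 of 14 differed, 5 higher and 5 lower, against 59.2%. Maff was 3.95 CPM (2.89 to 5.27) against 95.9 CPM (81.1 to 113) and Sik1, a kinase that restrains CREB coactivators, 24.5 against 128 CPM, both lower. Fos, 44 CPM, and Ier5, 18.6 CPM, were at 0 in naive neuroblasts (at least 22.8-fold and 9.65-fold), and Nr4a1 was 19.8 against 2.57 CPM. The naive sums of both types hold fewer than 10 cells, and 1 cell gave 64.7% of the naive TAP Egr1 counts.

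**Figure D3:**
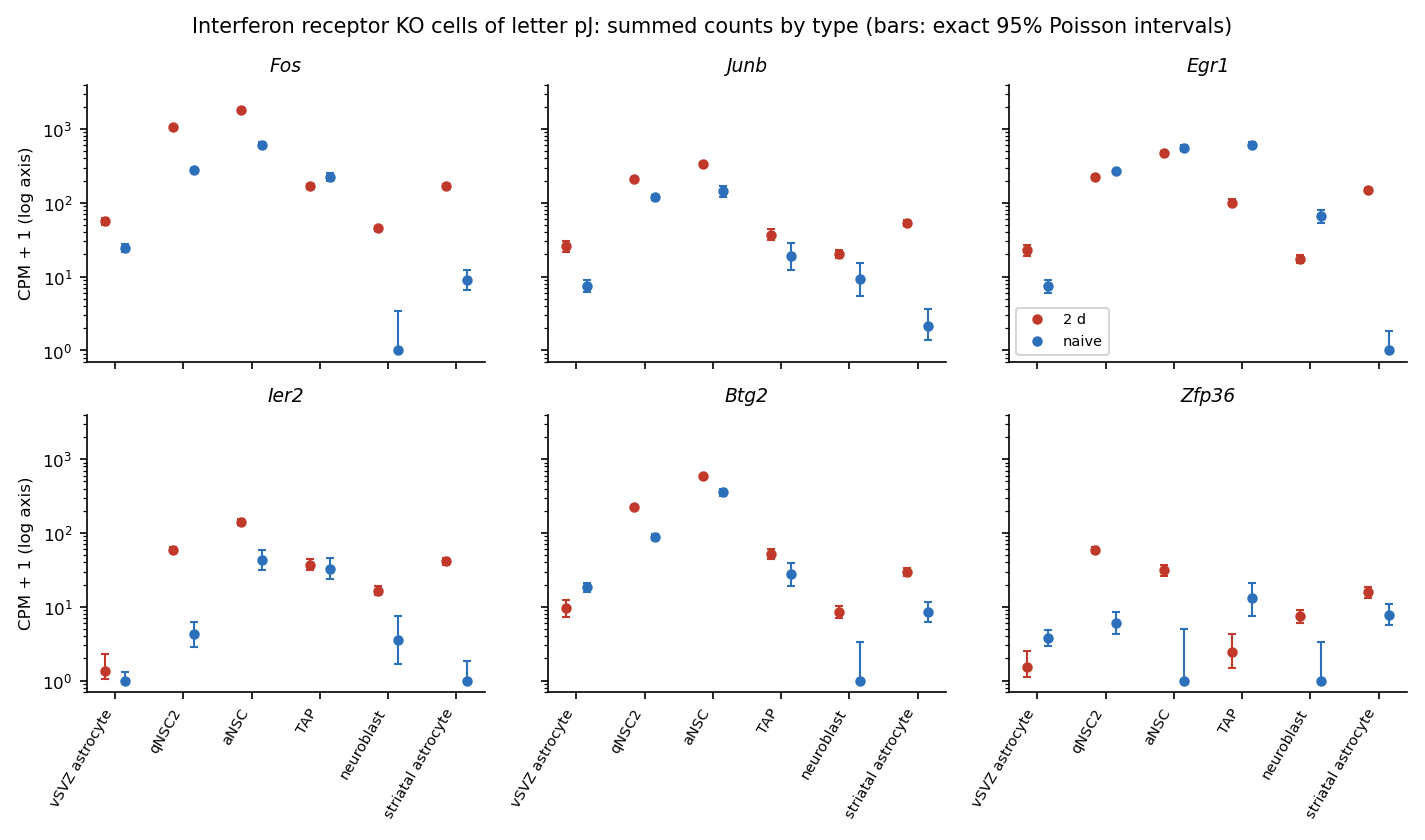
CPM (log axis) of Fos, Junb, Egr1, Ier2, Btg2 and Zfp36 in the labelled types of knockout letter pJ, at 2 days and naive, with exact Poisson 95% intervals. Fos reaches 1828 CPM in aNSC cells at 2 days against 614 CPM in naive ones, and neuroblasts and vSVZ astrocytes stand at 44 and 55.7 CPM at 2 days.

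Cells labelled neurogenic striatal astrocyte held more of most members than the other striatal astrocytes did, with 889 CPM of Fos in the knockout, against 1074 CPM in its qNSC2 cells. Over other striatal astrocytes of the knockout at 2 days (27 against 82 cells), 18 of 28 members differed, 16 higher and 2 lower, against 43.5% of all genes. Egr1 was 1497 CPM (1451 to 1545) against 147 CPM (138 to 156), Btg2 347 against 28.5 CPM, and Egr2 117 against 0.133 CPM. Egr3, 43.5 CPM, and Atf3, 32.1 CPM, were at 0 in the other astrocytes (at least 109-fold and 80.4-fold), with 88.2% of the Atf3 counts in 1 cell. In TiCY 6 cells carry this label at 2 days, with 557 CPM of Fos, 1130 CPM of Junb and 474 CPM of Egr1. The 5 TiCY cells labelled qNSC2 at 2 days had 1374, 826 and 902 CPM. Cells labelled reactive astrocyte differed: the 9 knockout cells had 131 CPM of Fos and 785 CPM of Jun, and the 7 TiCY cells had 0 CPM of Fos and of Egr1 but 581 CPM of Jun and 118 CPM of Atf3. The type labels may rest on these same transcriptomes.

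Between the genotypes, which differ in letter too, naive astrocytes had few members past 2-fold. In naive vSVZ astrocytes 2 of 9 members were higher in the knockout than in TiCY and none lower, against 17.3% of all genes: Fos, 23.5 CPM (20.8 to 26.4) against 4.66 CPM (3.70 to 5.79), and Jun, 101 against 44.1 CPM. Dusp6, 7.02 against 15.7 CPM, Gadd45g, 66.6 against 102 CPM, and Nfkbia, 24.4 against 38 CPM, were less than 2-fold apart. In naive striatal astrocytes 4 of 12 differed, 3 higher and 1 lower, against 24.4%. Fos was lower there, 7.99 against 45.2 CPM, with Gem 32.9 against 7.58 CPM, Jund 14.4 against 3.04 CPM, Csrnp1 17.1 against 4.41 CPM, and Gadd45g 38.6 against 82 CPM just inside 2-fold. In naive qNSC2 cells 10 of 21 differed, 3 higher and 7 lower, against 35.5%. Fosb was 1.02 CPM (0.330 to 2.37) against 69.3 CPM (62.7 to 76.4) and Gem 13 against 146 CPM. Sik1, Myc and Maff were at 0 in the knockout against 27.6, 12.4 and 12.1 CPM, at least 45.3-fold, 20.4-fold and 19.8-fold lower.

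At 2 days, of the members past 2-fold, more were lower than higher in the knockout than in TiCY. In the vSVZ sort 13 of 33 members differed, 1 higher and 12 lower, against 19.9% of all genes, and the other 20 were within 2-fold. With 20 CPM added 4 differed. The members' median share of a cell's counts was 0.0844% in the knockout and 0.0641% in TiCY, and Fos, Jun and Gadd45g had 553, 634 and 329.5 CPM in the knockout against 408, 345 and 233.5 CPM. Atf3 was 6.39 CPM (5.58 to 7.29) against 62 CPM (59.4 to 64.6), Klf4 19.6 against 117 CPM, Arc 3.37 against 31.5 CPM, Egr3 3.69 against 22.4 CPM and Fosl2 2.82 against 17.7 CPM. In the striatal sort 20 of 32 differed, 6 higher and 14 lower, against 42.0%. Hspa1a was 5.21 CPM (3.94 to 6.77) against 249 CPM (245 to 254), Atf3 9.12 against 161 CPM, Nr4a3 2.23 against 79 CPM, Maff 7.91 against 91.7 CPM and Hspa1b 3.91 against 53.6 CPM. The median depth of these striatal cells was 98844.5 counts in the knockout and 404706 counts in TiCY, and the part of depth was not tested.

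Regions also differed in naive mice. In TCF-Lef reporter mice, 14 of 19 members were higher in cortical (32 cells) than in striatal astrocytes (33 cells) and none lower, against 23.4% of all genes. Fos was 219.8 CPM (207 to 233) against 0.558 CPM (0.115 to 1.63), Gem 324 against 15.1 CPM and Jun 280.2 against 40.5 CPM, while Egr1, 101 CPM, and Klf4, 50.7 CPM, were at 0 in striatal astrocytes (at least 181-fold and 90.9-fold). Both come from letter pL, so the letter does not differ. Olfactory bulb cells (pF, 55 cells) over vSVZ neuroblasts (pC, 27 cells) differed in 13 of 20 members, 9 higher and 4 lower, against 40.6%. Here the letter differs too, and the bulb cells are labelled neuroblast/neuron, so region, letter and type cannot be told apart. Klf6 was lower at 4.98 CPM (3.65 to 6.64) against 90.1 CPM (81.5 to 99.4). Npas4, a factor of active neurons, was 24.6 against 0.901 CPM, Gadd45g 113 against 30.4 CPM and Maff 47.8 against 11.9 CPM, and Gadd45b was 27.4 CPM against 0, at least 40.5-fold higher.

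Per kilobase of exon, a scale for comparing genes that assumes reads spread over the whole transcript and would be wrong for counts of tagged transcript ends (the sources do not say which the counts are), Gadd45g led in 7 of the 8 GLAST sums of naive and 2 day cells and equalled Fos in the eighth. In the vSVZ Gadd45g had 281 and 199 CPM per kb in knockout and TiCY cells at 2 days against 91.6 and 126 in naive cells. Fos had 235 and 173 against 51.8 and 126, and Jun 199 and 108 against 54.6 and 52. In striatal TiCY cells at 2 days Gadd45g reached 504 CPM per kb, followed by Gadd45b with 111 and Hspa1a with 84.1.

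Core genes were high together in a minority of cells. A cell was called high when 6 or more of the 12 core genes had 100 CPM or more, a level that 1 read exceeds in the shallowest cells. Of 1981 cells 98 were high, which is 4.95% (exact binomial 95% interval 4.03 to 6.0%, for counting error only). In the knockout it was 37 of 342 cells at 2 days (10.8%, 7.73 to 14.6%) against 3 of 169 naive cells (1.78%, 0.368 to 5.10%). In TiCY it was 5 of 333 naive cells (1.5%, 0.489 to 3.47%), 31 of 298 cells at 2 days (10.4%, 7.18 to 14.4%) and 11 of 234 cells at 21 days (4.70%, 2.37 to 8.26%). Wild-type naive mice had 11 of 540 (2.04%, 1.02 to 3.62%), of which 4 of 67 cells were from pB, 4 of 92 from pC, 3 of 232 from pD and none from pA, pE or pF. Reporter mice had 0 of 65, which allows a share of up to 4.62% by the floor of 3 cells and of up to 5.52% by the exact interval. The cut is not a gap: 51 cells were 1 gene short of it, 47 were exactly at it, and 876 had no core gene at 100 CPM.

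By type, knockout cells at 2 days were high in 12 of 24 aNSC cells (50.0%), 9 of 27 neurogenic striatal astrocytes (33.3%), 12 of 67 qNSC2 cells (17.9%) and 4 of 82 striatal astrocytes (4.88%). None of 36 vSVZ astrocytes, 21 TAP cells, 76 neuroblasts and 9 reactive astrocytes was high at that time. In naive knockout cells 1 of 7 aNSC, 1 of 31 qNSC2 and 1 of 9 TAP cells were high, and in naive TiCY cells 1 of 13 aNSC, 3 of 39 qNSC2 and 1 of 8 TAP cells, with none of 131 striatal and 114 vSVZ astrocytes. In TiCY at 2 days 5 of 6 neurogenic striatal astrocytes and 4 of 5 qNSC2 cells were high, and none of 7 reactive astrocytes, while 22 of the 31 high cells were among the 280 cells labelled only as astrocytes and NSC lineage cells (7.86%). High cells thus occur in naive mice, and 3 of 24 wild-type oligodendrocytes of pB were among them.

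**Figure D4:**
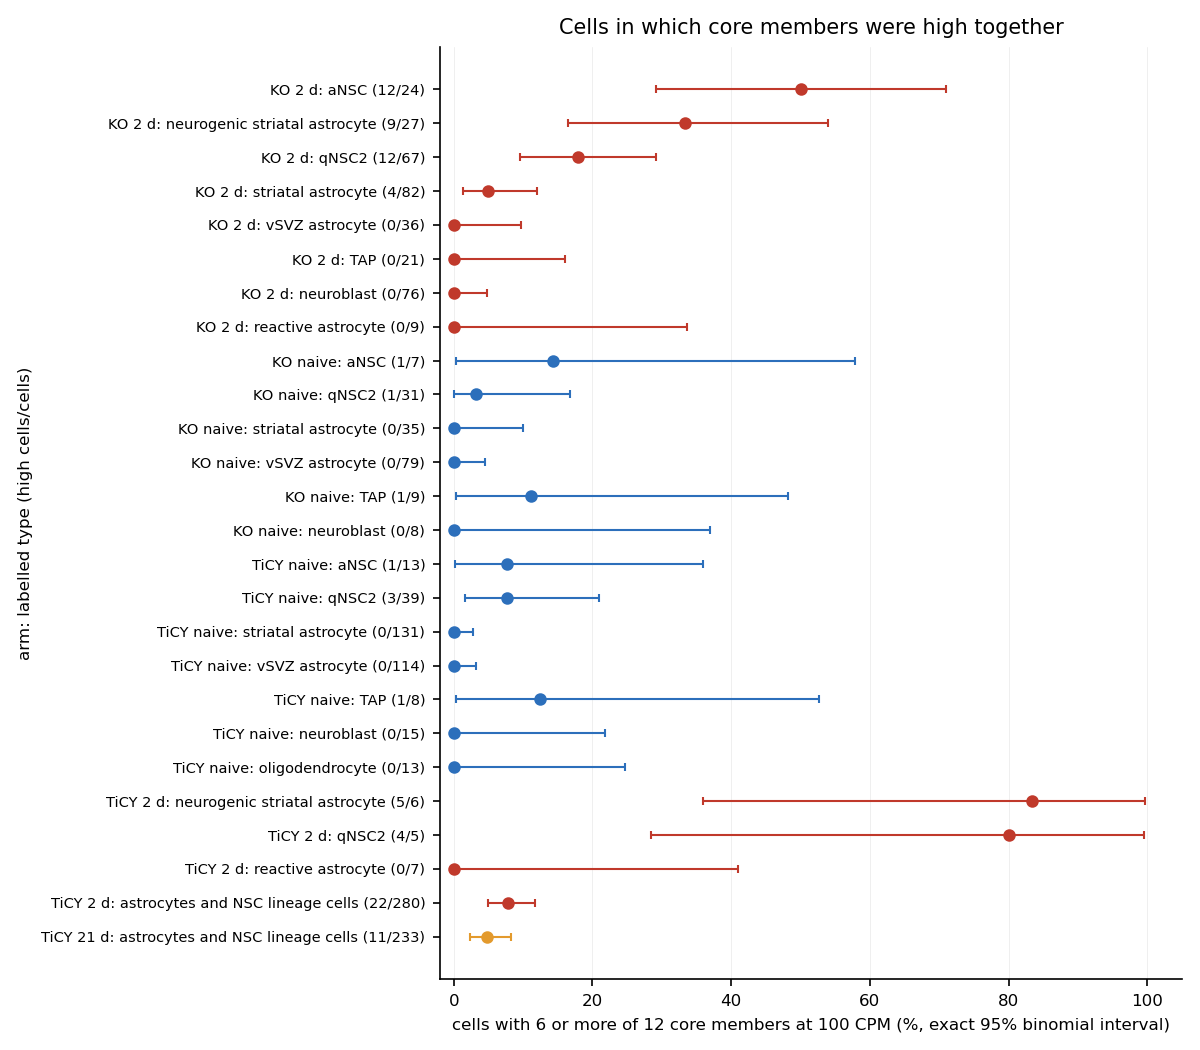
Percent of cells with 6 or more of the 12 core genes at 100 CPM or more, by group and labelled type, with exact binomial 95% intervals. Knockout aNSC cells at 2 days stand at 50.0%, and naive astrocytes of both genotypes at 0.

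In the 98 high cells Egr1 was at 100 CPM or more in 97, Fos in 96, Jun in 93, Junb in 85, Btg2 in 84 and Ier2 in 69. Gadd45g was at that level in 64 of them, Klf6 in 55, Nr4a1 in 49 and Fosb in 48, but Dusp1 in 17, Atf3 in 12, Npas4 in 1 and Egr4 in 0. Core genes chose these cells, so their counts are a description and follow from that choice and from how often each gene is read. The 894 other cells of letters and types with a high cell were pooled, without matching the proportions of these groups. Differences from the high cells thus also hold differences in group make-up. High cells had a median of 213448 against 159646 counts in the other cells, 6595.5 against 5034 genes and 0.417% against 0.293% mitochondrial counts. Their summed dissociation-linked genes had a median of 12152 against 8526 CPM, later response genes 360 against 168 CPM, and upstream factors and kinases 927 against 884 CPM. Astrocyte markers summed to 8251 against 11025 CPM. Microglia markers, 3 or more of them, were read in 2.04% of high and 0.559% of other cells, endothelial markers in 2.04% against 5.15%, pericyte markers in 0% against 0.224%, neuroblast markers in 9.18% against 22.5%, oligodendrocyte markers in 4.08% against 6.71%, and ependymal markers in 1.02% against 1.9%. The high cells described here were called from counts not thinned to a common depth, so these values cannot separate the part of depth. The part of handling in these cells was not tested.

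Across 1961 cells, after the mean of each letter and type was taken off log2(CPM + 10), each core gene was correlated with the sum of the other core genes, as a description over cells that share libraries. Fos (r = 0.53), Egr1 (0.53), Junb (0.49), Jun (0.4) and Fosb (0.39) followed it most closely, Btg2 (0.36), Ier2 (0.34) and Nr4a1 (0.31) less, and Atf3 (0.18) least of the core genes. The closest pairs were Fos with Egr1 (0.65), Fos with Junb (0.59) and Junb with Egr1 (0.54), and the lowest was Ier2 with Atf3 (0.087). For Fos r was 0.6 in 640 cells at 2 days and 0.42 in 1088 naive cells, and it was 0.49, 0.4 and 0.56 in the library sets of pA, pB and pE, of pC, pD and pF, and of pH to pM. After ischemia most TiCY cells share the label astrocytes and NSC lineage cells, over both sorts. Differences between types and regions thus stay in r there, and r at 2 days is not like for like with r in naive cells. The core sum had r = 0.059 with log2 depth and 0.19 with genes detected. Of the members outside the core, Klf4 was nearest (0.32), and Npas4 showed no relation (-0.0087).

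**Figure D5:**
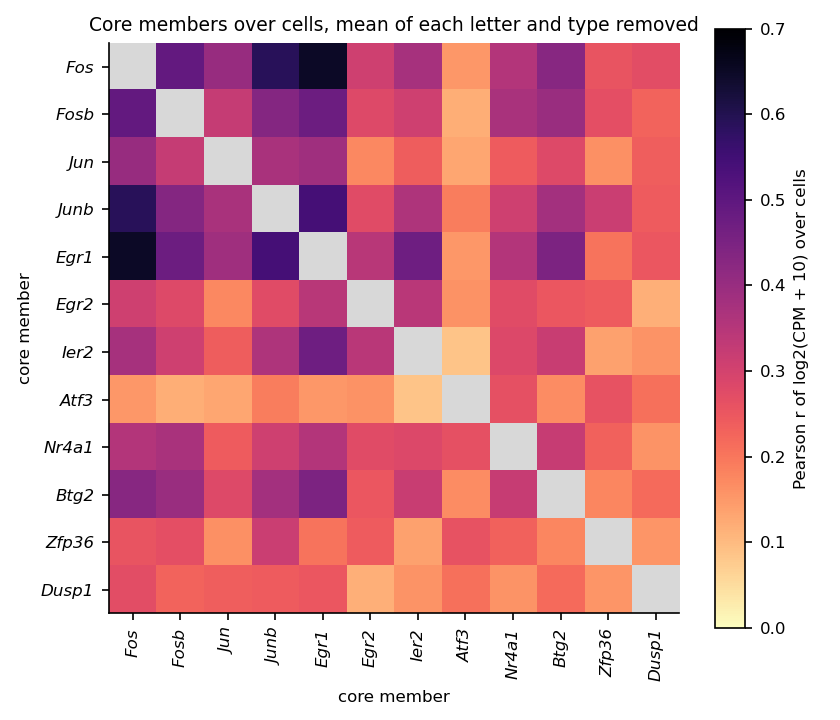
Pearson's r between the 12 core genes over 1961 cells, after the mean of each letter and type was removed. Fos, Egr1 and Junb form the darkest block (Fos with Egr1 0.65), and Atf3 has the palest row.

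Outside the list, 12801 genes with a read in 10% or more of the cells were ranked by the same measure, with a median r of 0.02 and 1 gene at 0.3 or more. That gene was Socs3 (r = 0.35, 0.5 at 2 days and 0.16 in naive cells, with the limit given above for cells not split by type). It was followed by Ppp1r15a (0.26), which restores translation after stress, and by Zfp36l1 and the secreted factor Ccn1 (0.23 each). Nfkbiz (0.22), Cebpd (0.21), the ribosomal protein genes Rps6 and Rpl3, Cdk6, Sertad1, Eif4a1, Nptx2, Vim and Odc1 were also among the 15 nearest. Values this low in sparse counts are given as a ranking only.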

How the data were processed

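RNA counts per gene and cell were deposited by the authors, with STAR, featureCounts and the build GRCm38 (mm10) named in the submitters' processing notes; no version, strand setting or statement that counts are reads or molecules is given there. The members, gene lists and tests were chosen with earlier results of these data known. Cells were matched to labels by name, and 603 unmatched cells and the separate ischemia table were not used here. In each letter the counts of 3 or more cells with 1 type or sort label were added up and tested with edgeR 4.0.16 (quasi-likelihood test, TMM, filterByExpr, Benjamini-Hochberg at 0.05) in R 4.3.3, after the code was tested on simulated data. DESeq2 1.42.0, its size factors, no filter, the letter as a block, fits of 2 groups, other pseudocounts and cut-offs, and leaving out each letter were the alternatives. The letters pair the wild-type types and sorts (correlation of deviations 0.148 to 0.527), but a letter can hold more than 1 mouse, so a shared letter does not by itself show the same animals. Text names the 12 core genes, every member called, the 5 members with the largest ratios in comparisons without a test, genes called in other lists and the 15 genes closest to the core sum, of which 1 is not reported here. Members overlap another gene on the same strand in 2 cases (Csrnp1, Dusp1).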

Additional observations from a re-analysis of the deposited data

Results flagged for a closer look

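In wild-type groups of 4 or 5 letters, 1 letter stood apart from the others for 11 of 33 sets of a core gene and a type, where chance gives about 1 in 20 for values without ties, a rate that does not apply where the other letters are at 0. In qNSC2 cells it was pB, a sum of 3 cells, with 334.8 CPM of Fosb (others 0 to 5.96), 413 CPM of Junb (0 to 53.6), 702.7 CPM of Egr1 (0 to 114), 62.28 CPM of Ier2 (0 to 4.96) and 48.91 CPM of Dusp1 (0 to 6.20). In qNSC1 cells it was pD, with 78.72 CPM of Fos (0 to 14.8), 23.32 CPM of Fosb (0 to 2.23) and 136.7 CPM of Jun (34.1 to 59.2), and pA with 0.1144 CPM of Egr2 (1 count), which was at 0 in the others. In neuroblasts it was pC, with 2.027 CPM of Fosb (0 to 0.173) and 4.73 CPM of Atf3 (others at 0).

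In 4 of 48 sets of a core gene and a pair of comparisons, levels moved in opposite directions by 2-fold or more at 2 days over naive. The pairs were knockout aNSC cells with TAP cells and with neuroblasts, and TiCY with knockout in each GLAST sort. All 4 sets were of knockout aNSC and TAP cells, and these differences were not tested. The log2 ratios were 6.07 in aNSC and -1.40 in TAP cells for Jun, 2.79 and -2.83 for Egr2, 2.83 and -1.41 for Zfp36, and 1.90 and -1.56 for Dusp1. The naive sums hold 7 aNSC and 9 TAP cells.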

How the results depend on the processing

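Counts are of members called, unless said otherwise. With DESeq2 they were 1 for wild-type qNSC2 over qNSC1, 2 for aNSC over qNSC2, 5 for the NB sort, 2 for naive qNSC2 over vSVZ astrocytes, 1 each for naive aNSC over qNSC2 and TAP over aNSC, and 5 for naive neuroblast over TAP. With no filter on low counts, 2 were called for naive qNSC2 over vSVZ astrocytes and 4 for neuroblast over TAP. With only the 2 groups in the fit, 0 were called for the NB sort and for naive neuroblast over TAP. Pairing by letter as a replicate block gave 2 calls in the NB sort and ended the call of Gem in the OLIGO sort, and it changed no other call among the members. No paired analysis was possible for the TiCY times because each is 1 letter. Leaving out 1 letter gave 0 to 1 calls for qNSC2 over qNSC1 and for aNSC over qNSC2 (1 without pD in each), 2 to 8 for oligodendrocyte over qNSC1, 0 to 1 for the NB sort (0 without pB) and 1 to 2 for the OLIGO sort. The vSVZ count at 2 days was 7 without pH, and the striatal count was 11 without the cells labelled neurogenic or reactive, an alternative chosen after seeing the data. Egr1 in the striatal sort had an adjusted p of 0.0870 with DESeq2. Leaving out pI, pJ or pM left no residual degrees of freedom. Over all alternatives, named ratios with 1 letter a group left their counting interval in 206 cases and stayed within it in 94. Shares of high cells by genotype and time left theirs in 16 cases and stayed in 19. Called members kept their call in 208 cases and lost it in 39, and no called member changed its direction. The median log2 difference over the members, which was not tested, did change sign without pB, to 0.85 for wild-type aNSC over qNSC2 (-0.17 with all letters), -0.62 for oligodendrocyte over qNSC1 (0.90) and -0.12 for the OLIGO sort (0.54). With the replicate block it was 0.53 for aNSC over qNSC2 and -0.08 for naive striatal over vSVZ astrocytes (0.16). In the NB sort it was -0.01 and lay between 0.05 and 0.41 without the filter, with the replicate block, with 2 groups in the fit or without any 1 letter.

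The share of high cells was 8.08% at 50 CPM, 2.93% at 200 CPM, 11.3% with 4 of 12 genes and 1.77% with 8 of 12. Without a test, the number of members past 2-fold fell with 20 CPM added: 9 in the vSVZ sort at 2 days in both TiCY and knockout, 2 in TiCY at 21 days, 3 in the striatal sort at 21 days, 4 in knockout vSVZ astrocytes, 7 in TAP cells, 5 in neuroblasts and 9 in striatal astrocytes. For knockout over TiCY it was then 0 in naive vSVZ astrocytes, 1 in naive striatal astrocytes, 5 in naive qNSC2 cells and 4 in the vSVZ sort at 2 days, where the mean over cells gave 8. It was 9 in the reporter and 8 in the olfactory bulb comparison, and 8 in the TiCY vSVZ sort at 21 days with 1 CPM added. The low members rest on few cells: Atf3 was read in 4.33% and Egr4 in 0.51% of the cells, and the part of depth in this was not tested.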
